A study of Homo sapiens with 18 samples.

Results

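The 10 genes described here are the G1 cyclins CCND1, CCND2, CCND3, CCNE1 and CCNE2, the A-type cyclin CCNA1, the kinase CDK6, and the cyclin-dependent kinase (CDK) inhibitors CDKN1A, CDKN1B and CDKN1C. They were chosen by name, with earlier results of these data known. They were found by matching Ensembl gene IDs of the deposited count table to symbols, and make up 10 of its 60252 genes. All 10 passed the filter on low counts, as did 21326 genes in all. Every library held at least 49 counts of each of them.

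The cells were MCF-10A, a human breast epithelial line that is immortalised but does not form tumours, with a stably expressed retroviral construct. They were cultured for 8 days in Matrigel, a basement membrane gel in which the line forms three-dimensional structures. In Control the pWZL vector was empty. In the 5 overexpression (OE) groups the construct coded for a splicing regulator, namely SRSF2, SRSF4, SRSF6, SRSF9 or TRA2B, and no other allele or agent is named in the labels. Each group had 3 samples, but replicates 1 and 2 of Control and of SRSF4-OE, SRSF6-OE and TRA2B-OE are lanes of a single library by library ID and barcode. These lanes were summed, which left 14 libraries: 2 in each of those groups and 3 in SRSF2-OE and SRSF9-OE. The 4 summed libraries carry a library ID in their description and the other 10 carry a number, a division called label set below. Groups are named by their labels, which do not say whether replicates or vector lines were made separately, so the spread behind each p-value is that between libraries and may be technical.

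Progress from G1 into S phase is driven by D-type cyclins with CDK4 or CDK6, then by E-type cyclins with CDK2, which together phosphorylate the retinoblastoma protein RB1 and free the E2F transcription factors. CDKN1A (p21), CDKN1B (p27) and CDKN1C (p57) bind cyclin-CDK complexes and restrain them. In Matrigel, MCF-10A structures first grow and later slow and stop dividing, and these genes belong to the pathway that governs such an arrest.

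RefSeq promoters (assembly GRCh38.p14, the 250 bases before the start site) were listed for 6 of the 10 genes: CCNA1, CCND3, CCNE1, CDK6, CDKN1A and CDKN1B. Those of CCNE1, CCNA1 and CDKN1A are shown because CCNE1 was above Control in the most even way, CCNA1 spanned the widest range and CDKN1A varied little. Capitals mark GC boxes, GGGCGG on either strand, also where 2 overlap. All 3 genes lie on the plus strand, and each stretch lies directly upstream of the annotated start.
CCNE1, chr19:29811741-29811990: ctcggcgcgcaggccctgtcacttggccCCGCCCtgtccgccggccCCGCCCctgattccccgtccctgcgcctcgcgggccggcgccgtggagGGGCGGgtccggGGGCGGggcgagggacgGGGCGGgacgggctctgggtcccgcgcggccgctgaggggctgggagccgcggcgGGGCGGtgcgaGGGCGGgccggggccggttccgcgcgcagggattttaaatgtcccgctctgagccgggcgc
CCNA1, chr13:36431705-36431954: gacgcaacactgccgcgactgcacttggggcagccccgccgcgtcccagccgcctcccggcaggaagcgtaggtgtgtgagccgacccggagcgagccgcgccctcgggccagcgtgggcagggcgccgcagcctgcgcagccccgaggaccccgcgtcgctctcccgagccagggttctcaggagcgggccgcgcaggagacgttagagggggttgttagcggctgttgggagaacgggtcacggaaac
CDKN1A, chr6:36678464-36678713: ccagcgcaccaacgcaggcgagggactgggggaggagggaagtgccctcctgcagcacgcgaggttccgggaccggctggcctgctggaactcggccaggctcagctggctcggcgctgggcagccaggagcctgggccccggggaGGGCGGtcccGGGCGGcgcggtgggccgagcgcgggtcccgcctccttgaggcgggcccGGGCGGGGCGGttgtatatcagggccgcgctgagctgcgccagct
The CCNE1 stretch held 7 GC boxes, that of CDKN1A 4 and that of CCNA1 0. Counting alternative starts, 6 of the 9 listed promoters of the 10 genes held a GC box, against 42.6% of the 35116 promoters in the table. The words TTTCCCGC, TTTGGCGC, TTTCGCGC and TTTGCCGC, forms of the E2F motif searched on both strands, were in 0 of the 9 and in 2.79% of all promoters. A match of this kind is a description of letters and not a binding site.

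The libraries held 42959069 to 121601376 counts. Basal epithelial markers were high in all libraries, with a median of 9844 CPM, counts scaled to library size, for KRT5. Of 6 luminal markers, KRT18 and KRT8 had medians of 159.2 and 124.9 CPM, GATA3 was 9.41 to 29.2 CPM, ESR1 had a median of 0.790 CPM, and PGR and ELF5 were at or near 0. Of 10 markers of fibroblast, endothelial and immune cells 9 were matched, and COL1A1, DCN and KDR had medians of 132.6, 124.9 and 10.01 CPM, while COL1A2, CDH5 and CD3E were at or near 0. The 9 summed to 577 CPM in Control replicates 1-2, against 285 CPM in Control replicate 3 and 171 to 446 CPM in the OE libraries, and their part in the results was not tested. CDKN2A, the INK4 inhibitor gene whose locus MCF-10A is known to lack, had 0 counts in all libraries and its neighbour CDKN2B had 1. SRSF2 stood at 213.6 CPM in SRSF2-OE replicate 1, close to the 176.0 and 203.8 CPM of Control, against 396 and 310.3 CPM in replicates 2 and 3. TRA2B stood at 147.1 CPM in TRA2B-OE replicate 3, against 201.3 CPM in replicates 1-2 and 104.9 to 105.9 CPM in Control. In the OE libraries of other groups SRSF2 was 194.4 to 271.8 CPM and TRA2B 128.2 to 167.6 CPM. SRSF2-OE replicate 1 and TRA2B-OE replicate 3 lay within these ranges. SRSF6 was not set apart in the libraries labelled SRSF6-OE, at 417 and 283 CPM against 400.0 and 239.2 CPM in Control. SRSF4 was 187.2 and 167.6 CPM in SRSF4-OE, against 71.4 to 105.9 CPM in all other libraries. SRSF9 was 358.6 to 839.1 CPM in SRSF9-OE, against 91.6 to 117.4 CPM in all others. Of the 2 Control libraries, replicates 1-2 had the lowest level of the proliferation marker MKI67 in the series, 17.3 CPM, against 65.5 CPM in Control replicate 3 and up to 256 CPM elsewhere. The differences from Control printed for the 10 genes are given also without a Control library wherever that moved them by over 1.5 times.

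Per kilobase of exon, over the 14 libraries, the inhibitor CDKN1A had the highest median level of the 10 genes, 81.6 CPM per kb, followed by CCND1 at 32.6. CCND3, CDKN1C, CDKN1B and CDK6 lay between 12.9 and 8.63 CPM per kb. CCNA1, CCNE1, CCND2 and CCNE2 were lowest, with medians of 5.78, 3.48, 3.39 and 1.71 CPM per kb. The order of variation was different: the highest library exceeded the lowest 104-fold for CCNA1 and 21.4-fold for CCND2, but 1.81-fold for CDKN1A and 1.73-fold for CCND3. Strand settings of the counting are not given in the sources used here, so reads of genes that overlap on opposite strands may have been shared. This touches CCND1 with LTO1 (145492 against 39671 counts over all libraries) and CCNE2 with INTS8 (7324 against 45437 counts). LTO1 was 35.6 and 34.4 CPM in Control, 59.2 and 54.1 CPM in SRSF4-OE, and 32.0 to 53.1 CPM in the other OE libraries. Its group mean, like that of CCND1, was highest in SRSF4-OE, and whether shared reads play a part was not tested. INTS8 was 39.4 to 74.2 CPM over the 14 libraries.

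**Figure D1:**
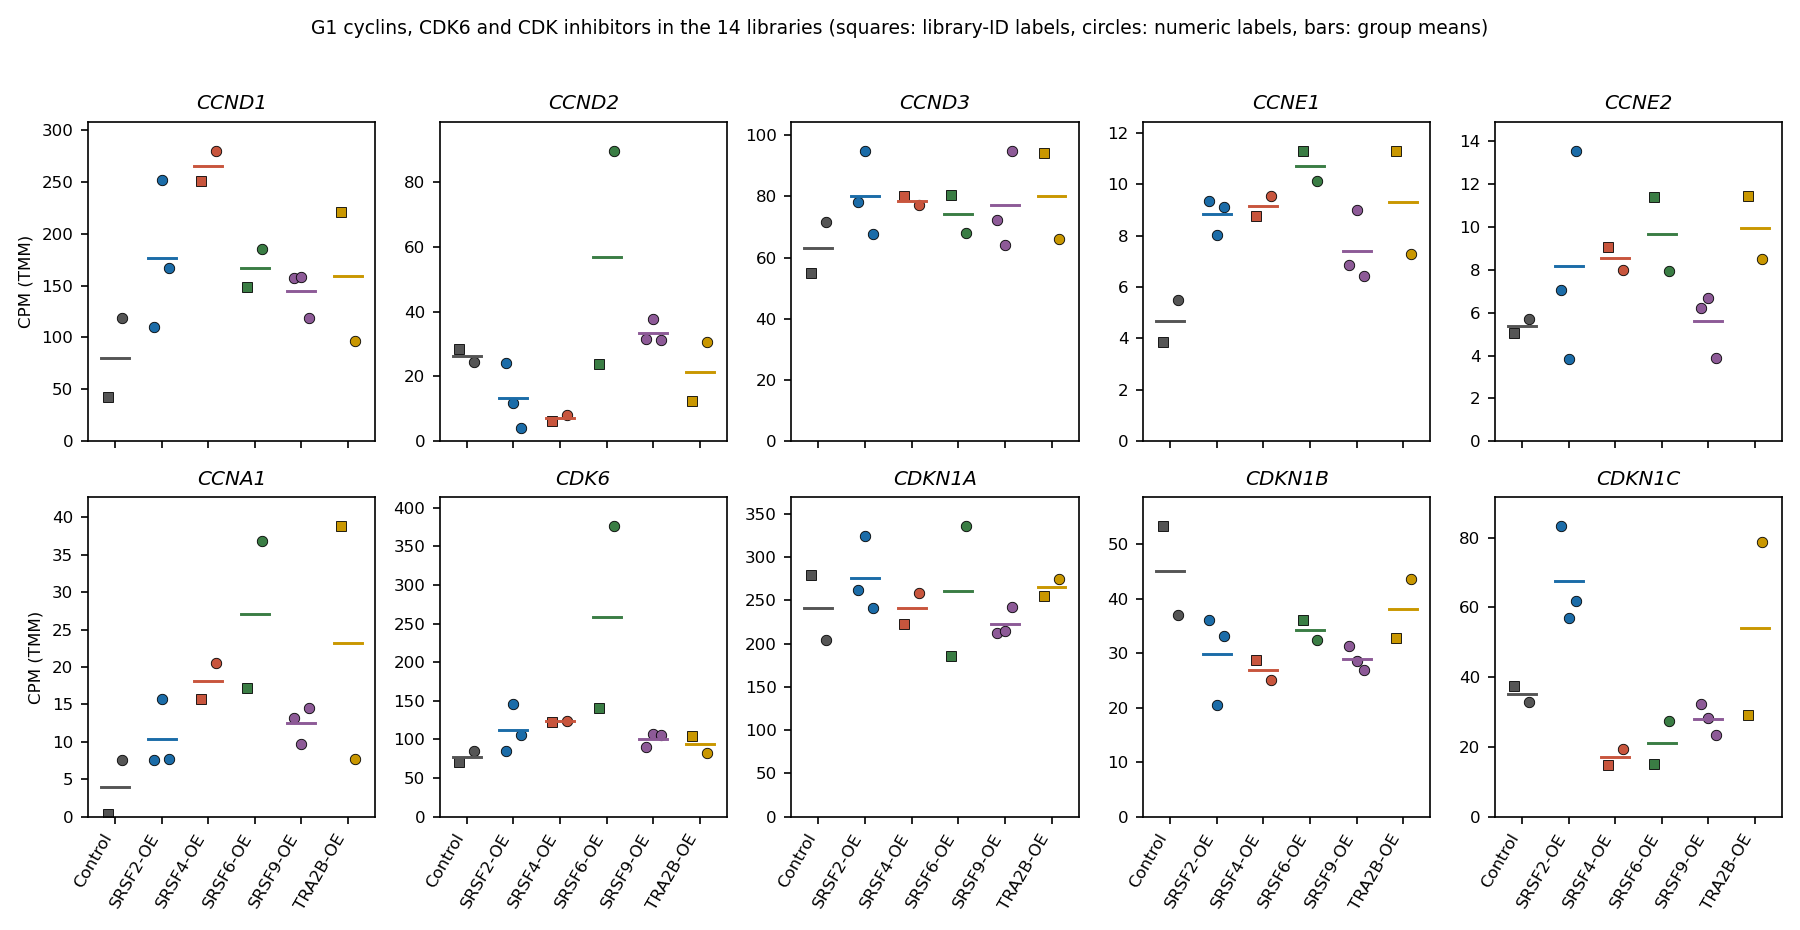
Level of each gene in each library, in TMM-normalised CPM (y axis, from 0), by group (x axis). Points are libraries (squares with library-ID labels, circles with numeric labels) and bars are group means; the 12 OE libraries lie above both Control libraries for CCNE1 and CCNA1, while CDKN1C is high in SRSF2-OE and low in SRSF4-OE and SRSF6-OE.

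In the text that follows, levels are TMM-normalised CPM given in replicate order, with the summed replicates 1-2 first in the groups that have them. Log2 fold changes and their standard errors are from the edgeR quasi-likelihood fit, which holds a term for label set, and are therefore not the plain ratios of the CPM shown.

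CCND1, the main cyclin partner of CDK4 and CDK6 in epithelium, was lowest in Control and highest in SRSF4-OE. It stood at 42.4 and 119 CPM in Control and at 110.2, 251 and 167 CPM in SRSF2-OE. The libraries had 250.3 and 279.9 CPM in SRSF4-OE, 149 and 185 CPM in SRSF6-OE, 157, 158 and 119 CPM in SRSF9-OE, and 221 and 96.8 CPM in TRA2B-OE. Both SRSF4-OE libraries and both SRSF6-OE libraries were above Control, while the other 3 groups each had a library below the higher Control library. The log2 fold change over Control was 1.76 ± 0.53 (SE, n = 2 libraries against 2) in SRSF4-OE, with an edgeR adjusted p of 0.244. It was 1.08 in SRSF2-OE, 1.09 in SRSF6-OE, 0.79 in SRSF9-OE and 1.07 in TRA2B-OE, with edgeR adjusted p-values of 0.277 to 0.870. DESeq2 called the difference in SRSF4-OE (adjusted p = 0.0393), and lost it in 5 of the 14 fits that left out a library each: without Control replicates 1-2, either SRSF4-OE library, or SRSF9-OE replicate 1 or 2, with adjusted p-values up to 0.802. The edgeR log2 fold change without Control replicates 1-2 was 1.09 in SRSF4-OE and 0.28 to 0.57 in the other groups. Without Control replicate 3 it was 2.78 in SRSF4-OE and 1.99 to 2.29 in the others.

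CCND2, a D-type cyclin with tissue-restricted expression, lay below Control in some OE groups and above it in others. It stood at 28.4 and 24.3 CPM in Control, and was lower in SRSF4-OE, at 6.22 and 8.23 CPM. SRSF2-OE had 24.2, 11.8 and 4.18 CPM, the first of these just under the lower Control library. SRSF6-OE had 23.9 and 89.6 CPM, so its libraries lay on both sides of Control and replicate 3 was the highest of all 14. The 3 SRSF9-OE libraries, at 31.6, 37.7 and 31.2 CPM, lay above Control, and TRA2B-OE had 12.3 and 30.7 CPM. The log2 fold change was -1.96 ± 0.68 in SRSF4-OE (edgeR adjusted p = 0.263) and -1.50 ± 0.66 in SRSF2-OE (edgeR adjusted p = 0.366). These were -1.07 and -0.86 without Control replicates 1-2, and -2.54 and -2.30 without Control replicate 3. In SRSF9-OE the estimate adjusted for label set was -0.18 although each library was above each Control library. That estimate was 0.47 without Control replicates 1-2 and -0.98 without Control replicate 3.

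CCND3, the D-type cyclin with the steadiest level here, was 55.0 and 71.6 CPM in Control and 64.1 to 94.9 CPM in the OE libraries. Only the SRSF4-OE libraries, at 80.1 and 77.1 CPM, were both above both Control libraries. Its log2 fold changes ran from 0.22 in SRSF6-OE to 0.39 in SRSF2-OE. The largest upper limit of the 95% intervals was 0.92, in SRSF2-OE, and all intervals included 0. The fold changes ran from -0.07 to 0.16 without Control replicates 1-2 and from 0.57 to 0.82 without Control replicate 3.

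CDK6, the kinase partner of the D cyclins, was above Control in SRSF6-OE by way of a very high library. The levels were 70.4 and 85.3 CPM in Control, 85.5, 146 and 105.3 CPM in SRSF2-OE, and 123 and 124 CPM in SRSF4-OE. SRSF6-OE had 140.3 and 376 CPM, SRSF9-OE had 89.9, 107.3 and 106.2 CPM, and TRA2B-OE had 104.9 and 82.2 CPM. All libraries of SRSF2-OE, SRSF4-OE, SRSF6-OE and SRSF9-OE were above Control (85.5 against 85.3 CPM at the nearest point), and TRA2B-OE overlapped it. The log2 fold change in SRSF6-OE was 1.67 ± 0.38, with an edgeR adjusted p of 0.137 and a DESeq2 adjusted p of 0.00303. Without SRSF6-OE replicate 3 it was 0.84, and DESeq2 lost the call without that library (adjusted p = 0.399), without Control replicates 1-2 (0.108) and without Control replicate 3 (0.0593). CDK4, the other D-cyclin kinase, was at 78.2 to 133 CPM over the 14 libraries, with log2 fold changes of -0.02 to 0.23 over the 5 groups.

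CCNE1, which activates CDK2 at the G1/S boundary, was higher than in both Control libraries in all 12 OE libraries. Control had 3.88 and 5.51 CPM, and the OE libraries had 9.37, 8.02 and 9.13 CPM in SRSF2-OE, 8.76 and 9.57 CPM in SRSF4-OE, and 11.3 and 10.1 CPM in SRSF6-OE. SRSF9-OE had 6.85, 8.995 and 6.42 CPM, the nearest to Control, and TRA2B-OE had 11.3 and 7.31 CPM. The group means, from the highest to the lowest, were those of SRSF6-OE (10.7 ± 0.84 CPM, SD, n = 2), TRA2B-OE (9.31 ± 2.83, n = 2), SRSF4-OE (9.17 ± 0.57, n = 2), SRSF2-OE (8.84 ± 0.72, n = 3), SRSF9-OE (7.42 ± 1.38, n = 3) and Control (4.70 ± 1.16, n = 2). Neighbours in this order overlapped in range, except SRSF9-OE and Control.

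The log2 fold changes of CCNE1 were 0.93, 0.96, 1.19, 0.68 and 0.98 in SRSF2-OE, SRSF4-OE, SRSF6-OE, SRSF9-OE and TRA2B-OE, and each 95% interval lay above 0. None passed over all genes tested with edgeR, where the adjusted p-values ran from 0.145 to 0.870. For the mean of the 5 groups the log2 fold change was 0.95 ± 0.23 (12 libraries against 2, unadjusted p = 0.00205, edgeR adjusted p = 0.159). DESeq2 called CCNE1 in SRSF4-OE (adjusted p = 0.0444), SRSF6-OE (0.00486), TRA2B-OE (0.0469) and the mean of the groups (0.00534). All 4 of these calls were lost without Control replicates 1-2, where the DESeq2 adjusted p ran from 0.25 to 0.982. Over the 14 fits that left out a library each, the call was lost in 7 for SRSF4-OE, 11 for TRA2B-OE and 1 for the mean. For SRSF6-OE it was lost in 2, the other being that without SRSF6-OE replicate 3. With edgeR the log2 fold changes ran from 0.44 in SRSF9-OE to 0.86 in SRSF6-OE without Control replicates 1-2, with 0.66 for the mean. Without Control replicate 3 they ran from 1.16 to 1.58, with 1.38 for the mean.

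CCNE2, the second E cyclin, was less even. It stood at 5.07 and 5.71 CPM in Control, at 7.07, 3.84 and 13.6 CPM in SRSF2-OE, and at 6.24, 6.69 and 3.91 CPM in SRSF9-OE. The libraries of SRSF4-OE (9.08 and 8.00 CPM), SRSF6-OE (11.4 and 7.94 CPM) and TRA2B-OE (11.4 and 8.51 CPM) were above Control, and those of SRSF2-OE and SRSF9-OE lay on both sides. The log2 fold changes of 0.17 to 0.86 did not pass with any tool at 14 libraries, with edgeR adjusted p-values of 0.353 to 0.959. They ran from -0.02 to 0.62 without Control replicates 1-2 and from 0.53 to 1.15 without Control replicate 3. CDK2, the kinase of both E cyclins, was 18.3 and 21.6 CPM in Control and 21.1 to 39.4 CPM in the OE libraries, and no contrast of CDK2 with Control was called.

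CCNA1, an A-type cyclin best known from male germ cells, had the widest range. It was at 0.375 CPM (49 counts) in Control replicates 1-2 and at 7.54 CPM in Control replicate 3. The OE libraries had 7.58, 15.7 and 7.65 CPM in SRSF2-OE, 15.7 and 20.5 CPM in SRSF4-OE, and 17.2 and 36.9 CPM in SRSF6-OE. SRSF9-OE had 13.3, 9.65 and 14.5 CPM, and TRA2B-OE had 38.8 and 7.66 CPM. All 12 OE libraries were above Control, but 3 of them, SRSF2-OE replicates 1 and 3 and TRA2B-OE replicate 3, lay only just above Control replicate 3.

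The log2 fold change of CCNA1 was 3.03 ± 1.11 in SRSF6-OE and 3.19 ± 1.25 in TRA2B-OE, with edgeR adjusted p-values of 0.207 and 0.366. DESeq2 called both (adjusted p = 0.0267 and 0.0322) and the mean of the 5 groups (0.0397). These calls were lost in 9, 11 and 10 of the 14 fits that left out a library each, among them fits without a library of a group not compared. When Control replicates 1-2 were left out the adjusted p-values were 0.318, 0.911 and 0.997, and the edgeR log2 fold changes were 1.79 in SRSF6-OE, 1.47 in TRA2B-OE and 1.13 for the mean, in place of 3.03, 3.19 and 2.35. When Control replicate 3 was left out they were 6.32, 5.99 and 5.65.

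CDKN1A (p21), the inhibitor best known as a p53 target, was the steadiest inhibitor. It stood at 279 and 204 CPM in Control and at 186 to 336 CPM in the OE libraries, and every OE group overlapped Control. Its log2 fold changes ran from -0.22 to 0.12, and the 5 intervals together spanned -0.81 to 0.70. Its direction depended on the Control library kept: the fold changes were 0.14 to 0.60 in the 5 groups without Control replicates 1-2 and -0.71 to -0.26 without Control replicate 3. Over 25 other p53 target genes the median log2 fold change was -0.11 to 0.02 in the 5 groups, beside medians of -0.04 to 0.04 over all genes. Of these, DESeq2 called TP53I3 higher in SRSF2-OE (log2 fold change 0.85, adjusted p = 0.0210) and TRA2B-OE (0.79, adjusted p = 0.0419) and the repair gene XPC lower in SRSF6-OE (-0.78, adjusted p = 0.00790), and edgeR called none. DESeq2 called none of the 25 without Control replicates 1-2 (adjusted p = 0.237, 0.669 and 0.239 for these 3 differences).

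CDKN1B (p27), an inhibitor of cyclin E-CDK2 that accumulates in resting cells, was highest in Control replicates 1-2. It stood at 53.4 and 37.0 CPM in Control, at 36.1, 20.4 and 33.2 CPM in SRSF2-OE, and at 28.9 and 25.2 CPM in SRSF4-OE. SRSF6-OE had 36.2 and 32.4 CPM, SRSF9-OE had 31.3, 28.7 and 27.0 CPM, and TRA2B-OE had 32.8 and 43.6 CPM. Every library except TRA2B-OE replicate 3 was below both Control libraries. The log2 fold change was -0.74 ± 0.27 in SRSF4-OE (edgeR adjusted p = 0.278) and -0.22 to -0.57 in the other groups, and neither edgeR nor DESeq2 called it. This value without Control replicates 1-2 was -0.41 in SRSF4-OE and -0.35 to 0.07 in the others, and without Control replicate 3 it was -0.985 and -0.89 to -0.49.

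CDKN1C (p57), an imprinted inhibitor gene, lay on opposite sides of Control in different OE groups. It stood at 37.6 and 32.9 CPM in Control and at 83.3, 57.1 and 62.0 CPM in SRSF2-OE, all 3 above Control. It was below Control in SRSF4-OE (14.9 and 19.4 CPM), SRSF6-OE (15.2 and 27.3 CPM) and SRSF9-OE (32.5, 28.3 and 23.5 CPM). TRA2B-OE had 29.2 and 78.7 CPM, on either side of Control. By group mean the order was SRSF2-OE (67.4 CPM), TRA2B-OE (54.0), Control (35.2), SRSF9-OE (28.1), SRSF6-OE (21.3) and SRSF4-OE (17.2), and only Control and SRSF9-OE were neighbours without overlap in range.

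Against Control, the log2 fold change of CDKN1C was 0.58 ± 0.34 in SRSF2-OE, -1.10 ± 0.33 in SRSF4-OE, -0.84 ± 0.33 in SRSF6-OE, -0.69 ± 0.33 in SRSF9-OE and 0.45 ± 0.34 in TRA2B-OE. When Control replicates 1-2 were left out these values were 1.04, -0.45, -0.23, -0.22 and 1.03, and without Control replicate 3 they were -0.04, -1.56, -1.32, -1.30 and -0.06. With all 14 libraries the edgeR adjusted p-values were 0.225 to 0.870 and the DESeq2 adjusted p-values 0.0893 to 0.941. In the F test over the 5 groups the edgeR adjusted p was 0.191 and the DESeq2 adjusted p 2.7e-05. This DESeq2 call held in all 14 fits that left out a library each, with adjusted p-values up to 0.00271.

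**Figure D2:**
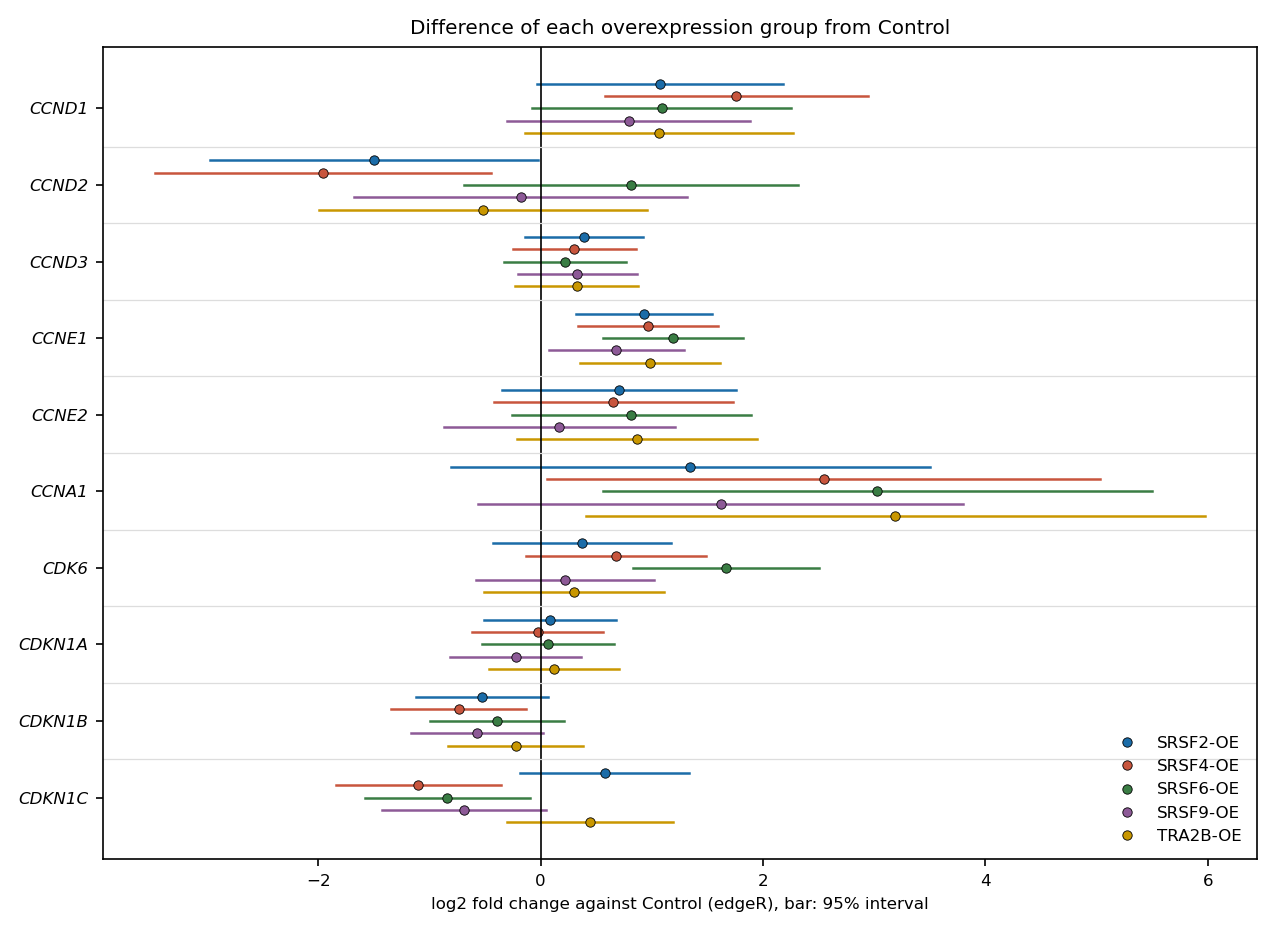
Log2 fold change of each gene (rows) in each OE group against Control (x axis), from edgeR, with 95% intervals as bars and colours for groups. The 5 CCNE1 intervals lie above 0, and those of CDKN1A are centred near 0. The CDKN1C estimates fall on either side of 0. Their intervals lie below 0 in SRSF4-OE and SRSF6-OE and include 0 in SRSF2-OE, SRSF9-OE and TRA2B-OE.

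For the 10 genes as a whole, edgeR called 0 in each contrast with Control. The edgeR unadjusted p was under 0.05 for 2 in SRSF2-OE, 6 in SRSF4-OE, 4 in SRSF6-OE, 1 in SRSF9-OE and 2 in TRA2B-OE. Of all 21326 genes tested, 2849, 3172, 4154, 954 and 2559 had an edgeR unadjusted p under 0.05 in these groups. Over all genes edgeR called 0% in SRSF2-OE, SRSF4-OE, SRSF9-OE and for the mean of the groups, 0.00469% in SRSF6-OE and 0.00938% in TRA2B-OE. DESeq2 called 0 of the 10 in SRSF2-OE, where it called 2.43% of genes, and 0 in SRSF9-OE, where it called 0.0684%. It called 2 in SRSF4-OE (2.63% of all genes), 3 in SRSF6-OE (6.08%), 2 in TRA2B-OE (2.21%) and 2 for the mean of the groups (3.42%), all higher than in Control, and limma-voom called 0 throughout. Without Control replicates 1-2, DESeq2 called 0 of the 10 in all 5 contrasts and for their mean. In the F test over the 5 groups edgeR called 0 of the 10 genes (0.0422% of all genes) and DESeq2 called CCND2, CCNE1, CDK6 and CDKN1C (7.02% of all genes). Over the 14 fits that left out a library each, the F test call of CCNE1 was lost in 9, those of CCND2 and CDK6 in 1 (without SRSF6-OE replicate 3, adjusted p = 0.0999 and 0.555) and that of CDKN1C in 0.

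The median log2 fold change of the 10 genes was 0.48 in SRSF2-OE and SRSF4-OE, 0.81 in SRSF6-OE, 0.19 in SRSF9-OE and 0.39 in TRA2B-OE, beside -0.04 to 0.04 over all genes. The median without Control replicates 1-2 was 0.44, 0.45, 0.54, 0.20 and 0.48, and without Control replicate 3 it was 0.57, 0.65, 0.84, 0.35 and 0.47. In SRSF6-OE it was 0.58 without SRSF6-OE replicate 3. The 5 contrasts share the Control libraries. The 10 genes were chosen with earlier results of these data known, so setting them beside all genes is a description and no separate test. In SRSF4-OE 6 of the 10 genes had every library above Control and 3 had every library below it, which 25.3% and 27.2% of all genes did. The counts above and below were 4 and 2 in SRSF2-OE (16.7% and 17.5% of all genes), 5 and 2 in SRSF6-OE (22.8% and 24.4%) and 4 and 2 in SRSF9-OE (16.5% and 17.6%). In TRA2B-OE they were 3 and 0, against 18.3% and 18.2% of all genes. Over the 12 OE libraries together 2 genes, CCNE1 and CCNA1, were above Control and 0 below it, against 4.31% and 3.87% of all genes.

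The ratio to Control depended on the label set. Within the library-ID set, CCNA1 was above Control replicates 1-2 by log2 ratios of 5.39 in SRSF4-OE, 5.52 in SRSF6-OE and 6.70 in TRA2B-OE, and within the numeric set it was above Control replicate 3 by 1.44, 2.29 and 0.02. For CCND1 the library-ID ratios were 2.56, 1.81 and 2.39 and the numeric ratios 1.24, 0.64 and -0.30. CCNE1 was above Control in both sets in all 3 groups, by 1.18, 1.55 and 1.55 in the library-ID set and by 0.80, 0.88 and 0.41 in the numeric set. CDKN1C was below Control in both sets in SRSF4-OE (-1.33 and -0.76) and SRSF6-OE (-1.31 and -0.27), but differed in sign in TRA2B-OE (-0.36 and 1.26). The ratio of CDKN1A had opposite signs in the sets in all 3 groups. SRSF2-OE and SRSF9-OE held numeric-set libraries only. Label set and the choice of Control library are the same split in these groups and cannot be told apart.

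**Figure D3:**
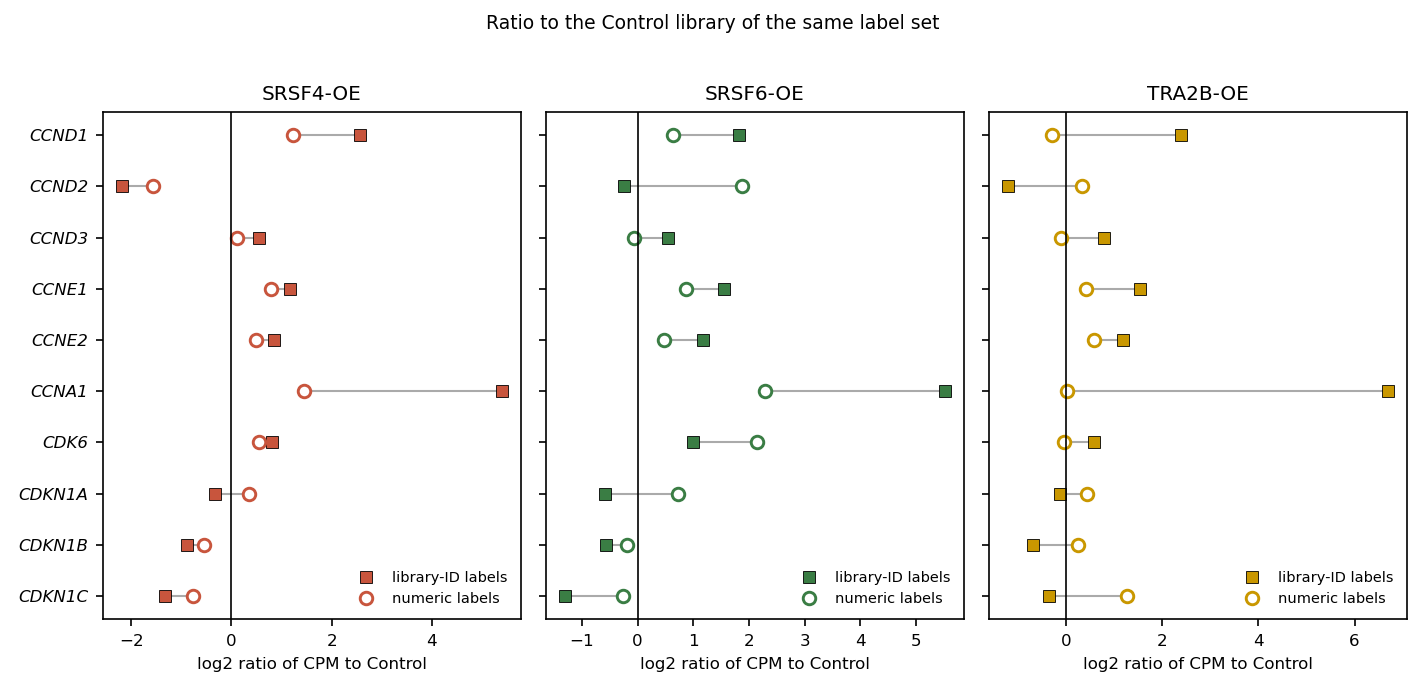
Log2 ratio of CPM to the Control library of the same label set (x axis) for each gene (rows) in the 3 OE groups with a library in each set. Squares are library-ID libraries against Control replicates 1-2 and open circles are numeric libraries against Control replicate 3; CCNA1 is furthest apart, at 6.70 and 0.02 in TRA2B-OE.

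The 10 direct contrasts compare OE groups with each other, though the Control libraries were in the fit and shared its label set term and estimate of spread. In these edgeR called 0 of the 10 genes, and 0% to 0.0234% of all genes, with 0.00469% in SRSF2-OE against SRSF9-OE. DESeq2 made 10 calls, all of CDKN1C, CCND2 or CDK6, and limma-voom made 0. For each call the edgeR adjusted p is given beside that of DESeq2.

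CDKN1C was higher in SRSF2-OE than in SRSF4-OE by a log2 fold change of 1.67 ± 0.35 (DESeq2 adjusted p = 0.00513, edgeR 0.557). It was higher in SRSF2-OE than in SRSF6-OE by 1.41 ± 0.34 (DESeq2 0.00909, edgeR 0.132) and than in SRSF9-OE by 1.26 ± 0.27 (DESeq2 0.00817, edgeR 0.262). In all 3 of these comparisons no libraries overlapped, but the share of all genes without overlap between OE groups was not counted. Between SRSF2-OE and Control 16.7% of all genes had every library above and 17.5% every library below. CDKN1C was also lower in SRSF4-OE than in TRA2B-OE, by -1.55 ± 0.34 (DESeq2 0.0205, edgeR 0.784), and lower in SRSF6-OE than in TRA2B-OE, by -1.29 ± 0.34 (DESeq2 0.0383, edgeR 0.297). Over the 14 fits that left out a library each, SRSF2-OE against SRSF4-OE was lost in 2, those without either SRSF4-OE library. SRSF2-OE against SRSF6-OE was lost in 2, without SRSF2-OE replicate 1 or SRSF6-OE replicate 3. SRSF2-OE against SRSF9-OE was lost in 4, without SRSF2-OE replicate 1 or 3 or SRSF9-OE replicate 2 or 3, with an adjusted p up to 0.168. The contrasts of SRSF4-OE and SRSF6-OE with TRA2B-OE were lost in 3 and 9, in both cases also without TRA2B-OE replicate 3. Without SRSF2-OE replicate 1 and TRA2B-OE replicate 3 together, where SRSF2 and TRA2B were lower than in the rest of their groups, the adjusted p-values with TRA2B-OE were 0.780 and 0.963 and those of the 3 contrasts with SRSF2-OE 0.000303 to 0.00731.

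CCND2 was higher in SRSF6-OE than in SRSF2-OE, with a log2 fold change of -2.31 ± 0.61 for SRSF2-OE minus SRSF6-OE (DESeq2 adjusted p = 0.0126, edgeR 0.1499). It was also higher there than in SRSF4-OE, with -2.77 ± 0.71 for SRSF4-OE minus SRSF6-OE (DESeq2 0.0196, edgeR 0.743). CDK6 was higher in SRSF6-OE than in SRSF2-OE (-1.30 ± 0.34 for SRSF2-OE minus SRSF6-OE, DESeq2 0.0263, edgeR 0.144). It was 1.45 ± 0.34 higher than in SRSF9-OE (DESeq2 0.0288, edgeR 0.339) and 1.37 ± 0.38 higher than in TRA2B-OE (DESeq2 0.0373, edgeR 0.302). In both contrasts with SRSF2-OE the libraries overlapped. CCND2 was 23.9 CPM in SRSF6-OE replicates 1-2 and 24.2 CPM in SRSF2-OE replicate 1. CDK6 was 140.3 CPM in SRSF6-OE replicates 1-2 and 146 CPM in SRSF2-OE replicate 2. The libraries of the other contrasts named here did not overlap, a pattern whose share over all genes was not counted. All 5 of these DESeq2 calls were lost without SRSF6-OE replicate 3, the library with the highest CCND2 and CDK6. Over the 14 fits that left out a library each, the CCND2 calls were lost in 1 and 3, and the CDK6 calls in 4, 6 and 10. The last of these, SRSF6-OE against TRA2B-OE, was lost without either Control library (adjusted p = 0.0552 and 0.0563).

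The share of all genes that DESeq2 called was 0.436% in SRSF2-OE against SRSF4-OE, 4.58% against SRSF6-OE, 1.32% against SRSF9-OE and 0.162% against TRA2B-OE. It was 0.159% in SRSF4-OE against SRSF6-OE, 0.088% against SRSF9-OE and 0.359% against TRA2B-OE. It was 0.981% in SRSF6-OE against SRSF9-OE, 2.07% in SRSF6-OE against TRA2B-OE and 0.246% in SRSF9-OE against TRA2B-OE. No call among the 10 genes fell in SRSF2-OE against TRA2B-OE, SRSF4-OE against SRSF9-OE or SRSF9-OE against TRA2B-OE, where the 95% interval for CDKN1C was -0.57 to 0.82, -1.15 to 0.33 and -1.82 to -0.45. In the last of these DESeq2 called CDKN1C without either Control library (adjusted p = 0.0297 and 0.0339) and without TRA2B-OE replicates 1-2 (0.00815).

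**Figure D4:**
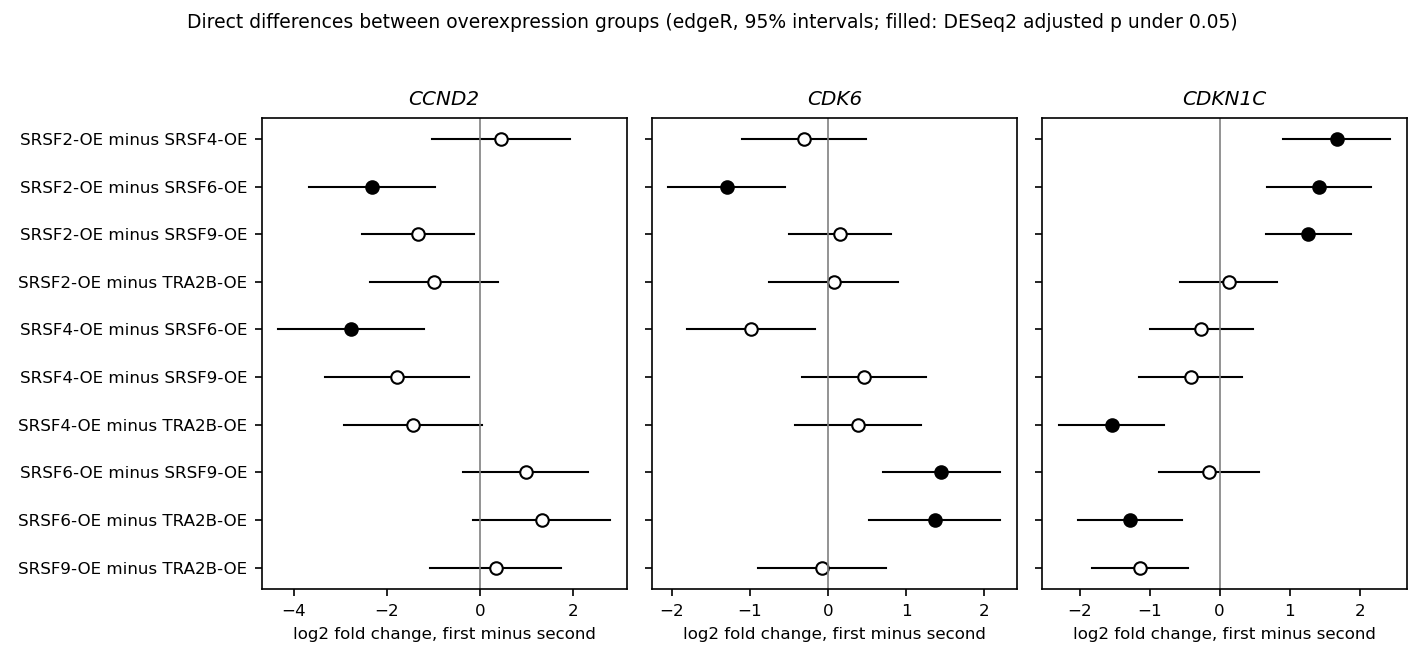
Log2 fold change between OE groups (x axis, first group minus second, edgeR with 95% intervals) for CCND2, CDK6 and CDKN1C in the 10 direct contrasts (rows). Filled points are contrasts with a DESeq2 adjusted p under 0.05: 2 for CCND2, 3 for CDK6 and 5 for CDKN1C.

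Other genes of the pathway were read from lists. Of 32 partners of G1/S control, 30 passed the filter and 18 to 24 of them had estimates above 0 in the 5 contrasts with Control. DESeq2 called E2F1 higher in SRSF4-OE (log2 fold change 2.25, adjusted p = 0.0327), the CDK-activating phosphatase gene CDC25A higher in SRSF4-OE, SRSF6-OE and TRA2B-OE (1.31, 1.27 and 1.41, adjusted p = 0.0187, 0.0150 and 0.0102), and the E2F partner gene TFDP1 higher in SRSF6-OE (0.67, adjusted p = 0.00307). It called none of the 30 lower, and edgeR called none. Without Control replicates 1-2 all 5 of these calls were lost, though DESeq2 then called another partner gene higher in SRSF6-OE. The edgeR log2 fold changes in that setting were 1.43 for E2F1, 1.01, 0.94 and 1.06 for CDC25A, and 0.62 for TFDP1. Without Control replicate 3 all 5 calls were kept. RB1 stood at 70.7 to 156 CPM, with log2 fold changes of -0.34 to 0.53.

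The list of 28 E2F and proliferation genes shares genes with the former, among them E2F1, CDC25A and CCNA2. It had 27 or 28 estimates above 0 in each contrast with Control. Its median log2 fold change was 0.81 in SRSF2-OE, 1.38 in SRSF4-OE, 1.32 in SRSF6-OE, 0.44 in SRSF9-OE and 1.46 in TRA2B-OE. DESeq2 called 1, 7, 9, 0 and 5 of them higher in these groups and none lower, and edgeR called none. In SRSF4-OE the calls included UHRF1 (2.24, adjusted p = 0.00526), MYBL2 (2.52, adjusted p = 0.0103) and the helicase gene MCM7 (0.70, adjusted p = 0.0103). Without Control replicates 1-2 the medians were 0.54, 0.95, 0.83, 0.14 and 1.03, with 20 to 28 estimates above 0, and DESeq2 called MCM7 in SRSF6-OE (adjusted p = 0.0399) and no other. Without Control replicate 3 the medians were 1.35, 1.96, 1.98, 1.14 and 2.01. The summed level of the list was 523 and 978 CPM in Control and 622 to 2101 CPM in the OE libraries.

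Among 20 genes that feed growth signals into G1, the medians were -0.26 to -0.0023, and DESeq2 called 1, 3 and 2 of them lower in SRSF2-OE, SRSF4-OE and SRSF6-OE and none higher. FOXO3 and FOXO1, which encode transcription factors known to activate CDKN1B, were named after their values were seen. FOXO3 was at -1.09 ± 0.20 in SRSF4-OE and -0.99 ± 0.20 in SRSF6-OE (DESeq2 adjusted p = 9.2e-04 and 0.00240, edgeR 0.212 and 0.127). FOXO1 was at -1.42 ± 0.30 and -1.01 ± 0.29 (DESeq2 adjusted p = 0.00444 and 0.0469, edgeR 0.212 and 0.167). DESeq2 called none of the 20 without Control replicates 1-2 (adjusted p = 0.293 and 0.198 for FOXO3, 0.533 and 0.511 for FOXO1).

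Over the 14 libraries the level of both E cyclins went with that of the 28 proliferation genes, given here as a description of libraries that share groups and Control. For CCNE2 Pearson's r of log2 CPM with their mean was 0.77 and Spearman's rho 0.71, and r was 0.72 without the 2 libraries farthest from the median and 0.80 in the 10 numeric-set libraries. For CCNE1 r was 0.72 and rho 0.60, but r was 0.38 without the 2 farthest libraries and 0.45 in the numeric set, so that relation rests on few libraries. CCND1, CCNA1 and CDK6 had r of 0.46, 0.51 and 0.07, which were -0.21, -0.05 and -0.29 without the 2 farthest libraries and -0.05, -0.23 and -0.22 in the numeric set. CDKN1A, CDKN1B and CDKN1C had r of -0.25, -0.03 and 0.03, which were -0.22, 0.52 and -0.03 without the 2 farthest libraries and -0.05, 0.52 and 0.30 in the numeric set. These relations, too, rest on few libraries. Of the 45 pairs of the 10 genes, CCND1 and CDKN1B were the most strongly opposed, with r of -0.83 and rho of -0.73, -0.66 without the 2 farthest libraries and -0.79 in the numeric set.

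**Figure D5:**
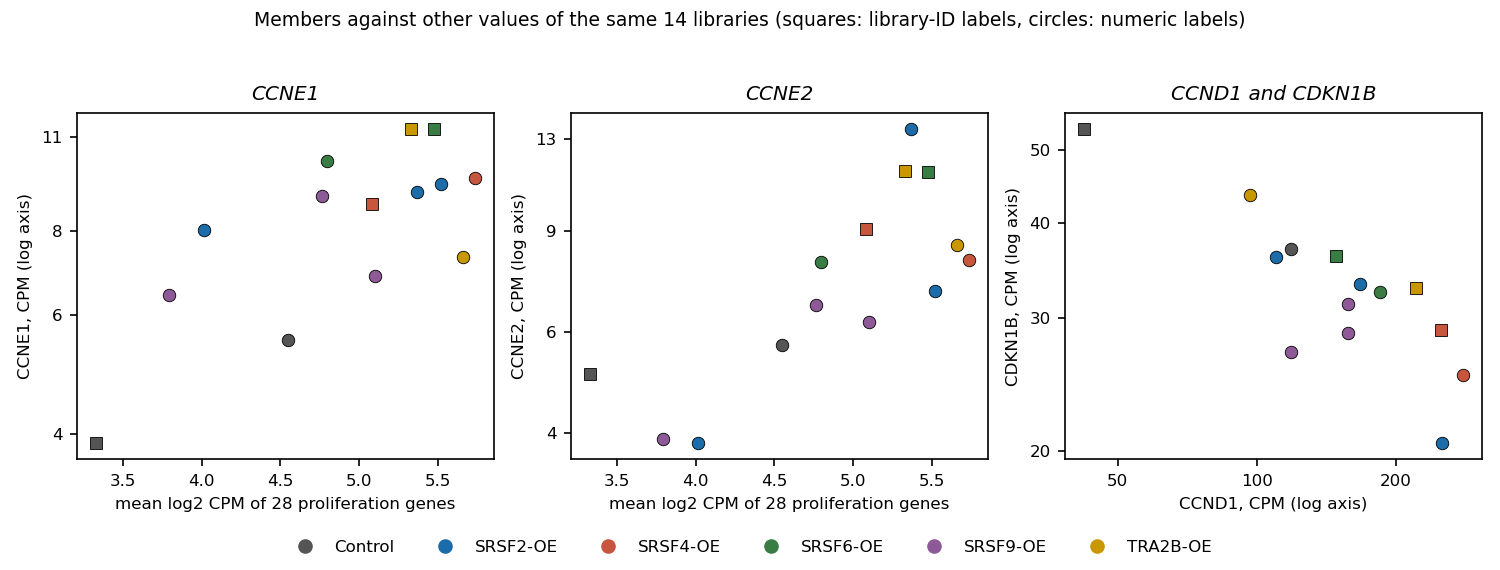
CCNE1 and CCNE2 (y axes, CPM on a log axis) against the mean log2 CPM of 28 proliferation genes, and CDKN1B against CCND1 (both CPM on log axes), 1 point per library. Squares are library-ID libraries and circles numeric ones, coloured by group; Control replicates 1-2 lie at an end of each plot, and CDKN1B is lower where CCND1 is higher (r = -0.83).

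The genes whose log2 CPM followed each of the 10 most closely over the 14 libraries, of 12725 with a mean of at least 3 CPM, were SH3TC2 for CCND1 (r = 0.96), EPB41 for CCND2 (0.91) and RRP9 for CCND3 (0.90). They were CDC25A for CCNE1 (0.91), the kinetochore gene DSN1 for CCNE2 (0.92), and LRP8 for CCNA1 (0.96). For CDK6 it was TNFRSF10A (0.96), followed by CDK14. For the inhibitors it was PIP5K1A for CDKN1A (0.92), OTUD6B-AS1 for CDKN1B (0.94) and MTCO2P12 for CDKN1C (0.91).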

How the data were processed

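The authors deposited a single table of raw counts per gene, whole numbers with 1 column per sample, for 18 samples (36426438 to 70515965 counts each). Per the labels' protocols, stranded mRNA libraries were read as paired 101-base reads. The submitters' processing notes name the build GRCh37 and the tools featureCounts, Subread, STAR 2.5.1b and Trimmomatic 0.36. The strand setting and the unit counted (pairs or reads) are not given in the sources used here.

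Symbols came from GENCODE release 29, matched by ID (55910 of 60252). Lane pairs of 4 libraries were summed. Using R 4.3.3, edgeR 4.0.16 (TMM, filterByExpr with a minimum count of 10, quasi-likelihood test) was fitted to all 14 libraries with group and label set as terms, which left 7 residual degrees of freedom, with Benjamini-Hochberg adjustment over the 21326 genes tested and calls at an adjusted p under 0.05. DESeq2 1.42.0 and limma-voom (limma 3.58.1) were run with the same terms, other alternatives as given in the closing section. The scripts were tested on simulated data. Exon lengths were unions of GENCODE exons. Named genes were the 10 genes, up to 6 genes per pathway list that a tool called against Control, CDK2, CDK4, RB1, E2F1, CDKN2A and MKI67, and the most alike genes. The genes and lists were chosen with earlier results of these data known.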

Additional observations from a re-analysis of the deposited data

Results flagged for a closer look

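For CDKN1C and CCND2, every library of an OE group lay above both Control libraries and every library of another OE group lay below them. The pairs were picked by this pattern in the same libraries, so the p-values of their direct contrasts are not a separate test of it. The share of all genes with such a pattern was not counted. None of these direct contrasts passed with edgeR, while those of CDKN1C passed with DESeq2. For CCND2 in SRSF9-OE the log2 fold change against Control, adjusted for label set, was -0.18 although its libraries lay above Control. CDKN1C differed by a log2 fold change of 1.67 between SRSF2-OE and SRSF4-OE, 1.41 between SRSF2-OE and SRSF6-OE, and 1.26 between SRSF2-OE and SRSF9-OE, with SRSF2-OE the higher each time (edgeR adjusted p = 0.557, 0.132 and 0.262, DESeq2 adjusted p = 0.00513, 0.00909 and 0.00817). CCND2 differed by -1.32 for SRSF2-OE minus SRSF9-OE and by -1.78 for SRSF4-OE minus SRSF9-OE, with SRSF9-OE the higher (edgeR adjusted p = 0.406 and 1, DESeq2 adjusted p = 0.219 and 0.780).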

How the results depend on the processing

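Of 2270 log2 fold changes of the 10 genes against Control under the alternatives, 77 were opposite in sign to the edgeR fit of 14 libraries, 0 of them with both values beyond their standard error, and 142 passed the threshold where that fit did not. Between alternatives, 5 of 60 differences lay above 0 by more than the standard error in one and below 0 by more than it in another. These were CDKN1A in SRSF2-OE, SRSF4-OE, SRSF6-OE and for the mean (0.43, 0.47, 0.52 and 0.43 without Control replicates 1-2, -0.41, -0.41, -0.33 and -0.42 without Control replicate 3) and CCND2 in SRSF9-OE (0.46 with only the groups compared fitted, -0.98 without Control replicate 3). The number of the 10 genes called was 0 with edgeR in each comparison. It was also 0 with limma-voom, RLE size factors, no low-count filter, no label set term, or without SRSF2-OE replicate 1 and TRA2B-OE replicate 3 together.

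With DESeq2 the counts were 2 in SRSF4-OE, 3 in SRSF6-OE, 2 in TRA2B-OE, 2 for the mean of the groups, 4 in the F test and 10 over the direct contrasts. With the 18 samples as separate replicates edgeR called 1 in SRSF2-OE (6.4% of all genes), 6 in SRSF4-OE (16.5%), 5 in SRSF6-OE (19.2%), 3 in TRA2B-OE (13.8%), 4 for the mean (18.2%), 5 in the F test (17.7%) and 7 over the direct contrasts (0.00476% to 4.63%), where lanes of a library count as replicates. With only the groups compared fitted it called 6 in SRSF4-OE (12.2% of all genes) and 4 over the direct contrasts (0% to 4.57%). The DESeq2 fits below, and the reading of the pathway lists without a Control library, were chosen after seeing the data. Without SRSF2-OE replicate 1 and TRA2B-OE replicate 3 together, DESeq2 called 1 in SRSF2-OE (3.06% of all genes), 5 in SRSF4-OE (5.88%), 4 in SRSF6-OE (9.92%), 3 in TRA2B-OE (3.68%), 3 for the mean (7.67%), 6 in the F test (9.39%) and 9 over the direct contrasts (0.331% to 5.87%). The SRSF6-OE libraries, in which SRSF6 was not set apart from Control, were kept in that fit.

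Leaving out each library in turn, edgeR called 0 in all contrasts with Control and in the F test, and 0 to 2 over the direct contrasts: 2 (CDK6) without SRSF6-OE replicates 1-2 and 1 (CDKN1C) without either TRA2B-OE library. Over these edgeR fits and the same with DESeq2, the range was 0 to 3 in SRSF2-OE, 0 to 5 in SRSF4-OE, 0 to 4 in SRSF6-OE, 0 to 1 in SRSF9-OE, 0 to 3 in TRA2B-OE, 0 to 3 for the mean, 0 to 6 in the F test and 0 to 14 over the direct contrasts. The DESeq2 counts were highest against Control without Control replicate 3 and 0 without Control replicates 1-2, and the cause was not tested. The share of all genes called moved between these fits as well. For DESeq2 over the direct contrasts it was at most 4.58% with 14 libraries and at most 12.7% without SRSF2-OE replicate 2. The counts of these fits are therefore not read as a result about the 10 genes. An arm left with a single library was assumed to vary like the other groups.

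Replicate numbers are shared between groups, but nothing in the labels says that a number marks a shared day or batch. Deviations of same-numbered libraries correlated by -0.034 to 0.494 between the 4 groups with summed lanes, and by 0.32, 0.259 and -0.42 between SRSF2-OE and SRSF9-OE. In the 4 groups replicate number and label set are the same split, so their correlations cannot tell these apart. With the replicate number as a block the edgeR count of the 10 genes was 0 in each comparison, as without it.

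The tests had 2 or 3 libraries per group and 7 residual degrees of freedom. Each gene had at least 163 counts in each library, apart from CCNA1 with 49 in Control replicates 1-2, and the effect of depth on the tests was not measured.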
